A study of Mus musculus with 6 samples.

Results

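The genes described here are the enzymes that make prostaglandins: Ptgds (lipocalin-type prostaglandin D2 synthase), the cyclooxygenases Ptgs1 and Ptgs2, and the prostaglandin E2 synthases Ptges, Ptges2 and Ptges3. Members were all probe sets whose only gene symbol in the array annotation is 1 of these 6. The rule found 7 probe sets of 4 genes among 22626 probe sets, with 2 each for Ptgds, Ptgs2 and Ptges and 1 for Ptges2. Ptgs1 had 0 probe sets under this rule. The 2 probe sets of Ptges3 also carry the symbol of its pseudogene Ptges3-ps, so they are no members and are not analysed here. The genes were chosen with earlier results of these data known. Ptgds was chosen by its low signal 2 h after the seizure in these arrays, so its levels are given as a description, with no test.

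All tissue came from the paraventricular nucleus of the hypothalamus (PVN) of C57Bl/6 mice, cut from stained 7 µm cryosections by laser. Under isoflurane, 1 shock of 25 mA was given through ear clips to produce an electroconvulsive seizure (ECS), and tissue was taken 2 h (2 arrays) or 6 h (2 arrays) later. Sham mice were handled alike without current and sampled at 2 h (2 arrays), so 6 h after ECS has no sham of its own time. Each array holds pooled RNA from 2 to 3 mice, the runs used different animals, and the labels state no age or sex. Groups are called sham, 2 h and 6 h below, and n = 2 arrays for every mean and SD.

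Prostaglandins are short-lived lipid signals made on demand from arachidonic acid. A phospholipase or lipase frees the fatty acid, a cyclooxygenase turns it into prostaglandin H2, and a terminal synthase makes prostaglandin D2, E2 or another product, which acts on receptors of the same or a neighbouring cell. Ptgds is both such a synthase and a secreted carrier protein of the lipocalin family, abundant in cerebrospinal fluid. In brain it is known from the meninges, the choroid plexus and oligodendrocytes, and its product promotes sleep. Ptgs2 is the inducible cyclooxygenase, a textbook activity gene of forebrain neurons.

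Ptgds and Ptges2 were the only members with signal above the median of every array, so the sequences before their start sites are shown. These are the 250 bases upstream of the RefSeq start (GRCm38.p6), Ptgds at chr2:25469750-25469999 on the minus strand and Ptges2 at chr2:32395640-32395889 on the plus strand. Capitals mark matches to the motifs searched on both strands: AP-1 (TGANTCA), the CRE core (TGACG), the palindromic E-box (CACGTG) and the TATA box (TATAAA).
Ptgds: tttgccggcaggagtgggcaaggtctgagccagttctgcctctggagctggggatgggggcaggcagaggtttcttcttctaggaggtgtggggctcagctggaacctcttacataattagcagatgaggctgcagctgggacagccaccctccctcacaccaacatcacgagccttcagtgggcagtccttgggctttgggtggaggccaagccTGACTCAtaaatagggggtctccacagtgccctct
Ptges2: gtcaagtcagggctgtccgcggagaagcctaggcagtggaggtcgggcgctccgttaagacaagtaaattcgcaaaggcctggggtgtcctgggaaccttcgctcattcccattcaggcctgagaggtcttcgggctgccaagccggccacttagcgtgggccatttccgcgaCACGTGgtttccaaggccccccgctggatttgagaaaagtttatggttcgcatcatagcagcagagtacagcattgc
Ptgds held 1 AP-1 match, TGACTCA, 35 to 29 bases before the start, and such a match is found in 6.75% of the 32851 RefSeq upstream sequences of the same length. Ptges2 held 1 E-box match, 77 to 72 bases before the start, found in 6.02% of them. The CRE core (17.8% of all) and the TATA box (12.4%) had no match in either sequence. The matches describe the letters and show no binding.

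The main probe set of Ptgds (1423859_a_at) was among the brightest on the sham arrays. Its deposited signal, on the linear MAS5 scale, was 1119.1 and 1602.5 in sham, 255.3 and 314.0 at 2 h, and 535.9 and 589.5 at 6 h. That placed it at the 97.4th percentile of all probe sets on both sham arrays, at 88.1 and 87.4 at 2 h, and at 91.9 and 92.9 at 6 h. The groups did not overlap, with sham highest, 2 h lowest and 6 h between them.

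After quantile normalization, on the log2(signal + 16) scale used for every level and change below, the same probe set stood at 10.45 ± 0.0076 in sham, 8.32 ± 0.065 at 2 h and 9.06 ± 0.14 at 6 h (mean ± SD). The difference from sham was -2.13 ± 0.25 (SE of limma, a linear model over all 6 arrays) at 2 h, which is 4.38-fold lower. It was -1.40 ± 0.25 at 6 h, or 2.63-fold lower. The 6 h level lay above the 2 h level by 0.73 ± 0.25, or 1.66-fold. Each SD comes from 2 arrays, and these differences were not tested, since Ptgds was chosen for its values. Within replicate 1 the difference from sham was -2.08 at 2 h and -1.49 at 6 h, and within replicate 2 it was -2.18 and -1.31. As normalized signal, Ptgds was left at 22.7% and 21.2% of the sham mean at 2 h, and at 34.8% and 39.9% at 6 h.

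The dimmer probe set of Ptgds (1423860_at) also lay lower after ECS, with a wider spread. Its deposited signal was 205.9 and 176.9 in sham, 71.4 and 45.3 at 2 h, and 76.1 and 83.2 at 6 h. Both seizure groups lay below both sham arrays, while the 2 h and 6 h arrays overlapped after normalization. Its log2 level was 7.69 ± 0.56 in sham, 6.28 ± 0.57 at 2 h and 6.52 ± 0.05 at 6 h. The change from sham was -1.41 ± 0.42 at 2 h and -1.17 ± 0.42 at 6 h, smaller than on the main probe set. From 2 h to 6 h it moved by 0.24 ± 0.42, within the spread between arrays, with -0.13 within replicate 1 and 0.60 within replicate 2. The step from 2 h to 6 h was thus 0.73 on one probe set and 0.24 on the other, a difference that was not tested. Both read the same RNA, so they are not independent samples. Across the 6 arrays they correlated by 0.87 (Pearson, a description).

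**Figure D1:**
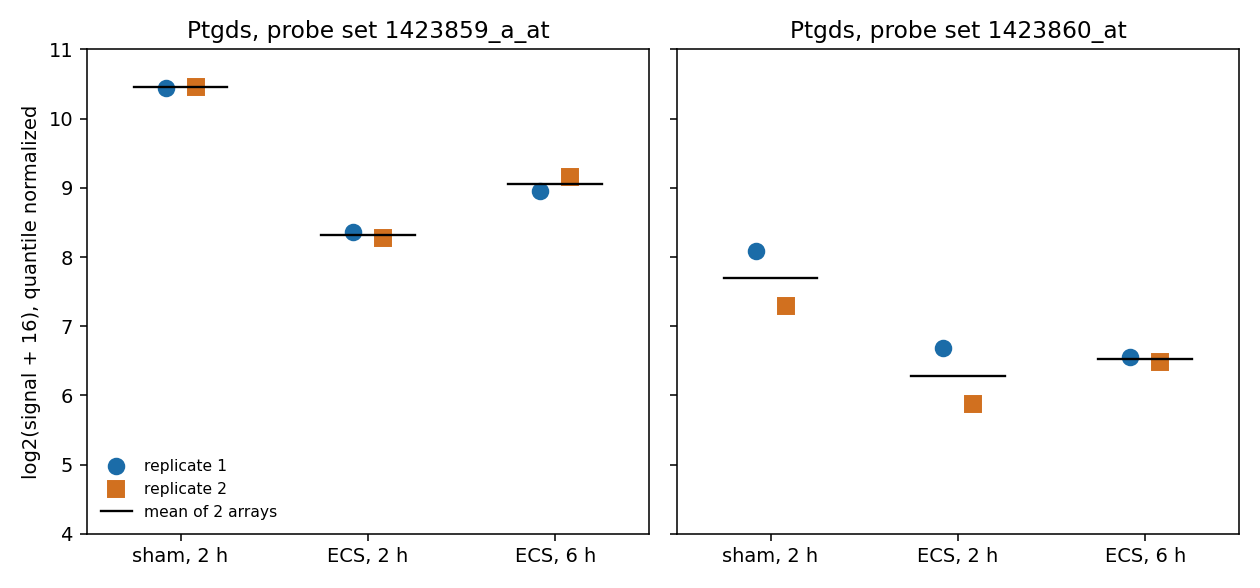
Log2(signal + 16) after quantile normalization of both Ptgds probe sets in each of the 6 arrays, by group (circles replicate 1, squares replicate 2, lines the mean of 2 arrays). On 1423859_a_at the groups are separate at 10.45, 8.32 and 9.06, and on 1423860_at both seizure groups lie below sham but overlap each other.

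Among the 12662 tested probe sets, the change of 1423859_a_at at 2 h ranked 17th from the lowest and that of 1423860_at ranked 76th. At 6 h the ranks were 74 and 144. Limma called 0% of tested probe sets in each of the 3 comparisons at an adjusted p under 0.05, and 507 (4%), 476 (3.76%) and 436 (3.44%) had an unadjusted p under 0.05 at 2 h against sham, 6 h against sham and 6 h against 2 h. The earlier result that Ptgds was chosen by came from a fit blocked by replicate, which calls 4 probe sets (0.0316%) at 2 h, all lower, the main Ptgds probe set among them. That is the choice itself and supports nothing further, and the call is made in 6 of 18 settings. Of the 3 tested member probe sets, the 2 of Ptgds were at least 2-fold lower with no overlap at 2 h and at 6 h. Of all tested probe sets 1.86% and 1.94% were. The untested Ptgs2 1417263_at, Ptgs2 1417262_at and Ptges 1449449_at stood at 4.35, 4.21 and 4.40 in sham. The offset sets a floor of 4, so these could not fall 2-fold. The count is therefore no contrast between Ptgds and the other members. The order of the main probe set, lower than sham at both times and higher at 6 h than at 2 h without overlap, was found in 145 tested probe sets (1.15%). Choosing Ptgds by its low 2 h values favours these ranks, its fall at 2 h and a rise from 2 h to 6 h. The ranks and shares are therefore a description and no evidence of a rare pattern. The comparisons of 2 h and of 6 h share the sham arrays, so their changes are not independent of each other. In these bulk samples fewer cells of a type and less RNA per cell cannot be told apart.

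**Figure D2:**
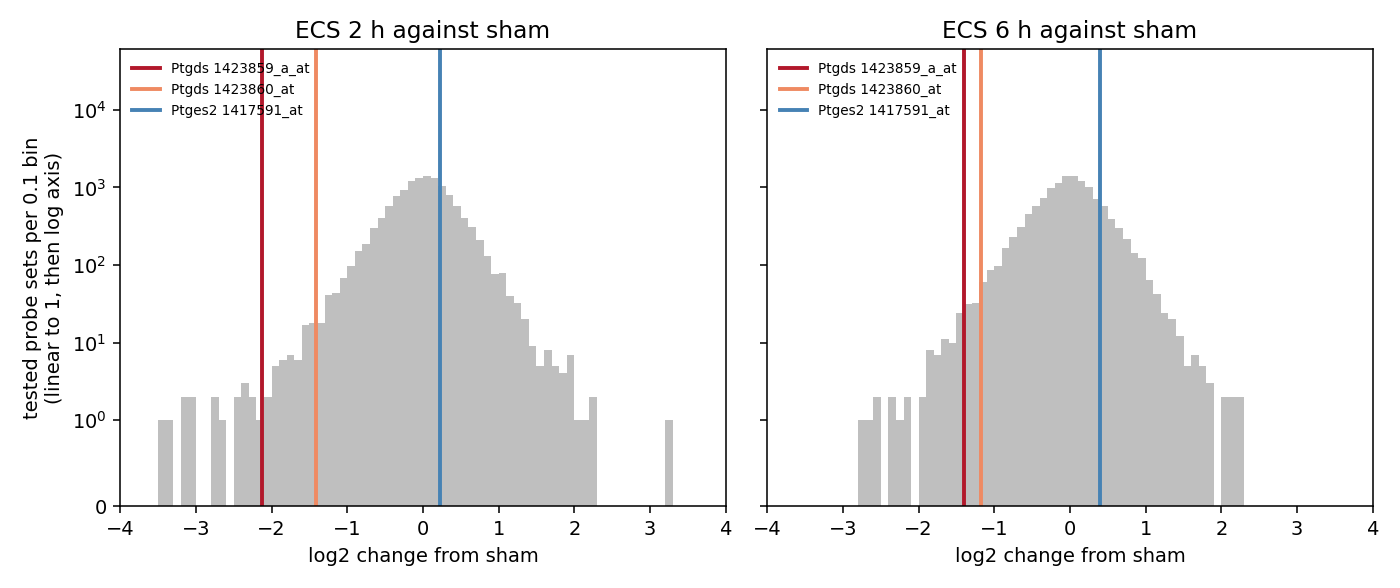
Log2 changes from sham of all 12662 tested probe sets (grey, counts per 0.1 bin on an axis that is linear to 1 and logarithmic above) with the 3 tested member probe sets as lines. The Ptgds lines at -2.13 and -1.41 (2 h) and at -1.40 and -1.17 (6 h) lie in the lower tail, and the Ptges2 lines at 0.22 and 0.40 lie in the body of the distribution.

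The cyclooxygenase Ptgs2 had almost no signal in any group. Probe set 1417262_at read 2.6 and 3.0 in sham, 3.6 and 0.1 at 2 h, and 0.1 and 1.6 at 6 h as deposited. Probe set 1417263_at read 0.2 and 12.5 in sham, 3.3 and 1.1 at 2 h, and 0.6 and 0.3 at 6 h. The lower quartile of the arrays lay between 5.7 and 8.7, and the probe sets were below it on 6 and on 5 of 6 arrays. Neither passed the filter for testing, which asks for a signal at or above the array's own median on at least 2 of the 6 arrays, and neither met that median on any array. A level near the floor of 4, which the offset sets on the log2 scale, has no usable order, and no rise of Ptgs2 was detectable at 2 h or at 6 h with these probe sets.

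Ptges, the inducible microsomal prostaglandin E2 synthase that works with Ptgs2, was also dim. Probe set 1449450_at read 27.8 and 15.8 in sham, 22.1 and 25.1 at 2 h, and 27.9 and 20.8 at 6 h. The groups overlapped, and the signal reached the array median on 1 of 6 arrays, just outside the filter. Probe set 1449449_at read 1.9 and 11.4 in sham, 0.9 and 1.8 at 2 h, and 2.3 and 22.7 at 6 h, so its highest value rests on 1 array. The 6 h to sham difference of that probe set was 0.29 ± 0.31, or -0.18 without 6 h replicate 2.

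Ptges2, a membrane-associated prostaglandin E2 synthase made in most tissues, was the only member besides Ptgds to be tested. Its deposited signal was 76.6 and 130.0 in sham, 96.6 and 124.8 at 2 h, and 159.3 and 134.2 at 6 h. After normalization its log2 level was 6.84 ± 0.075 in sham, 7.06 ± 0.0038 at 2 h and 7.24 ± 0.24 at 6 h. Sham was lowest and 6 h highest, with small distances between the groups. It differed from sham by 0.22 ± 0.35 at 2 h (limma, adjusted p = 0.99924) and by 0.40 ± 0.35 at 6 h (limma, adjusted p = 0.999721). From 2 h to 6 h it differed by 0.18 ± 0.35 (limma, adjusted p = 0.999136), or by 0.012 without 6 h replicate 1. As deposited the sham and 2 h arrays overlap, whereas after normalization its arrays did not overlap in any of the 3 comparisons, at 6 h against 2 h by a narrow gap (7.06 and 7.07 against 7.08 and 7.41). Such an order, higher in the group named first, was held by 16.3% of tested probe sets at 2 h against sham, by 14.8% at 6 h against sham and by 14.4% at 6 h against 2 h, so it does not set Ptges2 apart. The difference between Ptgds and Ptges2 was not tested, since Ptgds was chosen for its values.

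**Figure D3:**
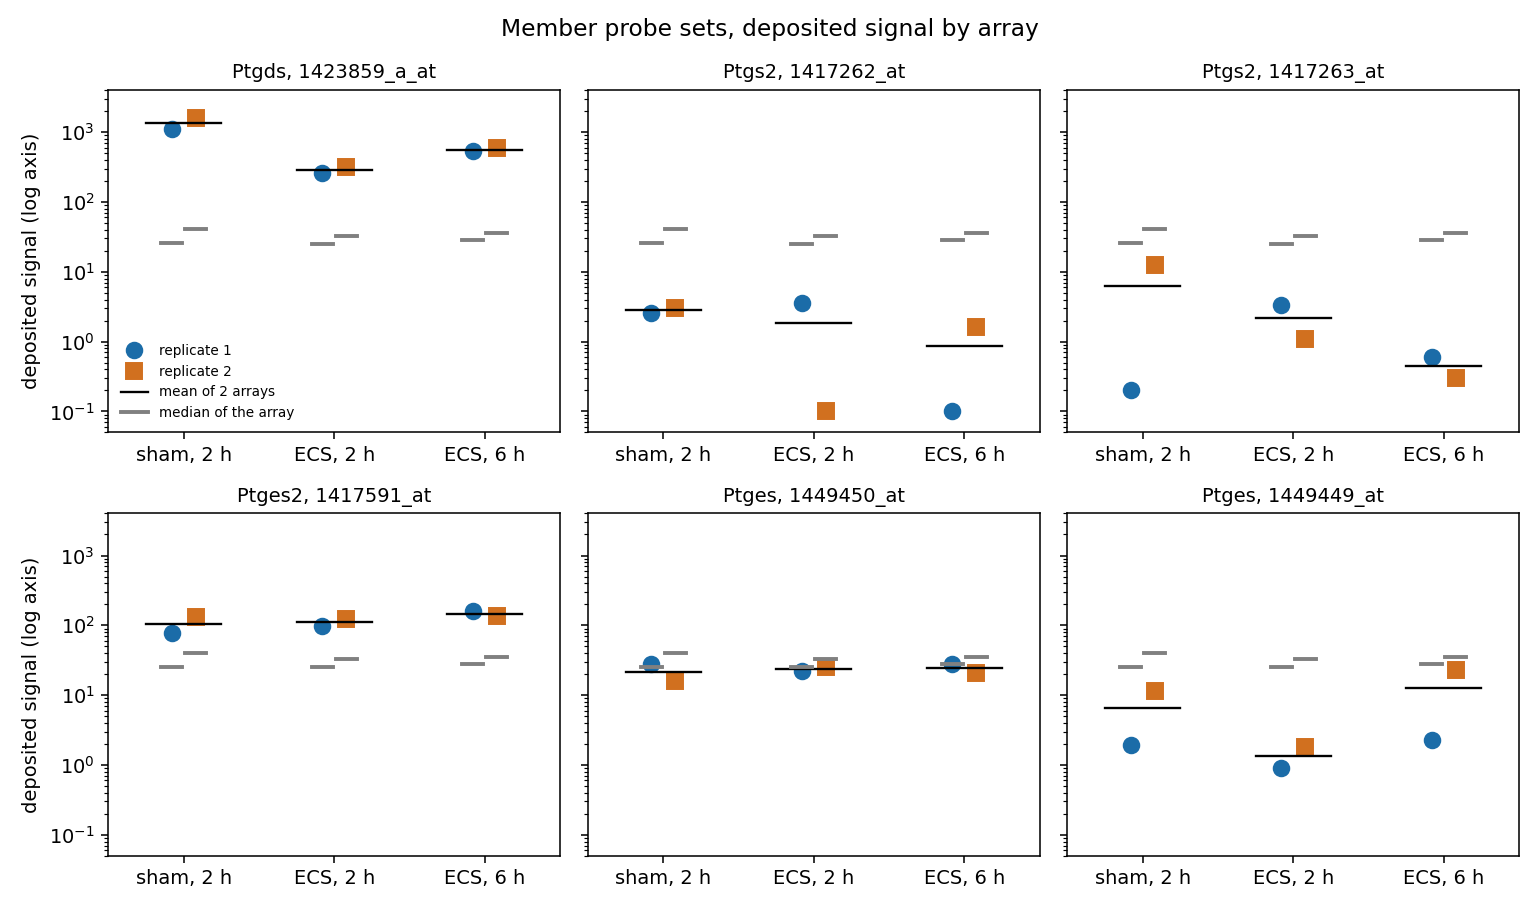
Deposited MAS5 signal on a log axis of 6 of the 7 member probe sets in each array (circles replicate 1, squares replicate 2, black lines the mean of 2 arrays, grey ticks the median of that array). Ptgds and Ptges2 lie above the array medians throughout, Ptges 1449450_at lies near them, and Ptgs2 and Ptges 1449449_at lie below them.

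Genes around the enzymes were read from lists of the release of arachidonic acid, other prostanoid synthases, receptors, transport and breakdown, and lipid carriers. Of 51 listed names, 42 had a probe set of their own and 16 passed the filter. Limma called 0 of the 16 in each comparison, and 1 of them had an unadjusted p under 0.05 at 2 h and 1 at 6 h, against 4% and 3.76% of all tested probe sets. At 2 h 1 of the 16 lay above and 5 below both sham arrays, where 16.3% and 16.4% of tested probe sets did. At 6 h 3 lay above and 3 below, where 14.8% and 15.3% did.

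Of the enzymes that release arachidonic acid, 12 were on the array and 5 were tested. At both times 4 of these 5 were lower, where 49.1% (2 h) and 50.4% (6 h) of all tested probe sets were. The median change of the 12 was -0.24 at 2 h and -0.30 at 6 h. Over the 5 tested it was -0.78 and -0.53, against 0.0077 and -0.0032 over all tested probe sets. The 6 h median was -0.89 without 6 h replicate 2, and 3 of the 5 were then lower at 6 h, as they were without 6 h replicate 1. Abhd6, a monoacylglycerol lipase, had the smallest p of the list. It read 222.1 and 153.1 in sham, 71.1 and 51.2 at 2 h, and 74.7 and 73.7 at 6 h. It differed from sham by -1.30 ± 0.44 at 2 h (limma, adjusted p = 0.99924) and by -1.21 ± 0.44 at 6 h (limma, adjusted p = 0.999721). Its second probe set differed by only -0.05 ± 0.41 and -0.21 ± 0.41, so the probe sets of Abhd6 disagree in size.

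Mgll, the lipase that supplies much of the arachidonic acid for prostaglandins in brain, read 73.2 and 97.9 in sham, 37.4 and 32.4 at 2 h, and 26.1 and 60.6 at 6 h. Its change was -0.89 ± 0.41 at 2 h and -0.84 ± 0.41 at 6 h, and its other tested probe set was at -0.65 ± 0.42 and -1.10 ± 0.42, none past the test. Pla2g6, a calcium-independent phospholipase, was at -0.78 ± 0.54 and -0.53 ± 0.54, and Faah, which hydrolyses anandamide, was at -0.24 ± 0.50 and -0.36 ± 0.50. Pla2g12a, a secreted phospholipase, had the opposite sign, at 0.51 ± 0.50 at 2 h and 1.03 ± 0.50 at 6 h. Pla2g4a, the calcium-activated cytosolic phospholipase, did not pass the filter, with deposited signals of 14.8 and 15.4 in sham, 0.4 and 3.6 at 2 h, and 2.7 and 7.0 at 6 h. These arrays do not overlap with sham, but all lie below their array's median.

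The 4 tested genes among other prostanoid synthases lay on both sides of sham, with medians of 0.12 at 2 h and -0.10 at 6 h. With 1 array left out the median ran from -0.21 (without sham replicate 2) to 0.47 (without sham replicate 1) at 2 h and from -0.29 to 0.11 (without the same arrays) at 6 h, so it has no settled sign. Cbr1, a carbonyl reductase that converts prostaglandin E2, was at 0.58 ± 0.38 at 2 h, where both arrays lay above sham, and at 0.05 ± 0.38 at 6 h. Prxl2b, a prostaglandin F synthase, was at 0.097 ± 0.29 and -0.24 ± 0.29, and Tbxas1, the thromboxane synthase, at 0.15 ± 0.58 and -0.35 ± 0.58. Gstm1, a glutathione transferase, was at -0.27 ± 0.30 and 0.15 ± 0.30, on a probe set that near-identical family members may share. Hpgds, the other prostaglandin D2 synthase, found in microglia, did not pass the filter and read 19.1 and 20.9 in sham, 21.9 and 12.9 at 2 h, and 2.8 and 26.5 at 6 h.

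Of 10 receptors on the array, 1 passed the filter. Ptger4, the EP4 receptor of prostaglandin E2, read 83.4 and 173.5 in sham, 81.2 and 239.5 at 2 h, and 249.4 and 183.9 at 6 h. It differed from sham by 0.30 ± 0.42 at 2 h and by 0.66 ± 0.42 at 6 h (limma, adjusted p = 0.999721), and its second tested probe set by 0.27 ± 0.51 and 0.35 ± 0.51. The other 9 had deposited signals from 0.3 to 68.7. Among them were both receptors of prostaglandin D2. Ptgdr2 read 1.9 and 1.0 in sham, 8.9 and 11.5 at 2 h, and 2.2 and 1.3 at 6 h, below the median of every array.

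Genes of prostaglandin transport and breakdown had a median of 0.03 at 2 h and 0.47 at 6 h over 4 tested genes. All 4 were higher at 6 h, where 49.6% of all tested probe sets were, and none passed the test. The 2 h median was -0.41 without 2 h replicate 1 and 0.39 without 2 h replicate 2, and the 6 h median was 0.24 without 6 h replicate 1. Hpgd, which inactivates prostaglandins, was at -0.32 ± 0.42 at 2 h and 0.39 ± 0.42 at 6 h. Ptgr1 and Ptgr2, reductases of the next step, were at 0.55 ± 0.53 and 0.64 ± 0.43 at 6 h. Another tested probe set of Ptgr2 was at -0.92 ± 0.38 at 6 h, so the sign of that gene is not settled here. Cbr3, a relative of Cbr1, was at 0.25 ± 0.48 and 0.036 ± 0.48. Among carriers, Rbp4, a lipocalin that binds retinol, was at -0.75 ± 0.49 at 2 h and -0.12 ± 0.49 at 6 h, and Apod, a lipocalin of glia, at -0.41 ± 0.41 and -0.54 ± 0.41.

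**Figure D4:**
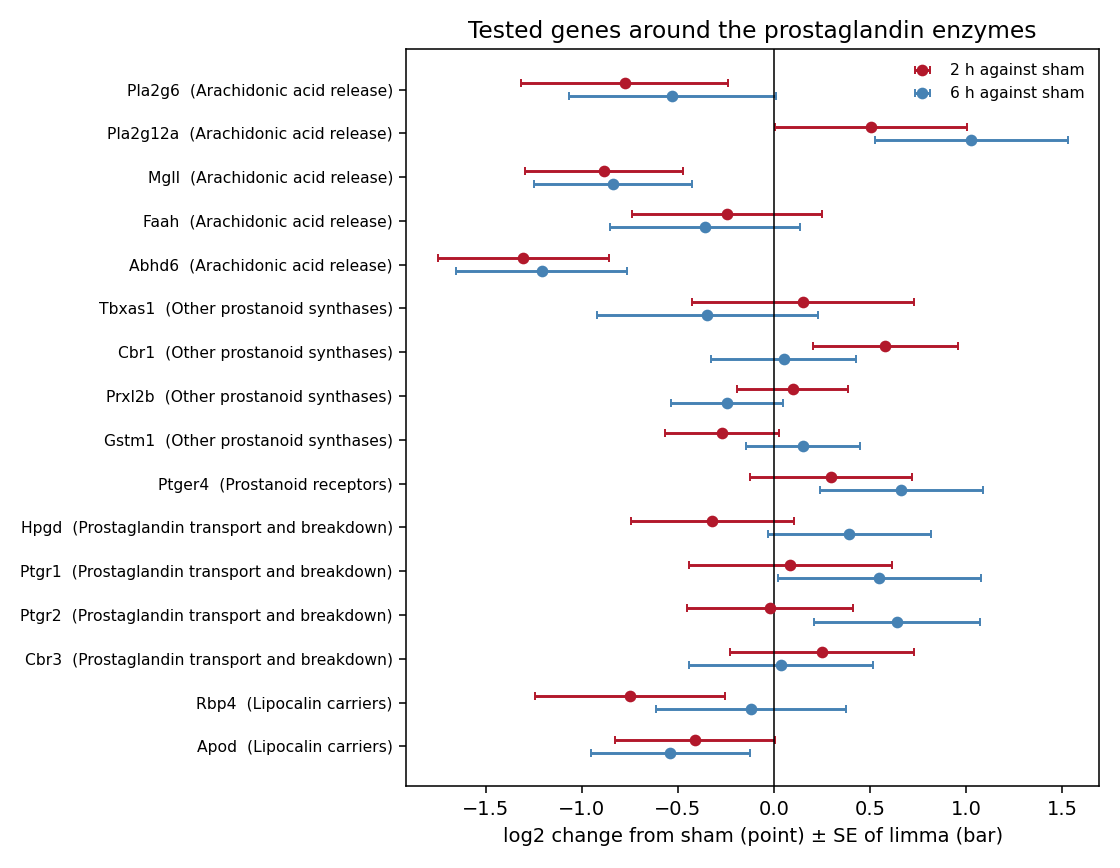
Log2 change from sham (points) with the SE of limma (bars) at 2 h (red) and 6 h (blue) for the 16 tested genes of the 5 lists. Abhd6 and Mgll lie lowest and Pla2g12a at 6 h highest, and none passed the test.

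The genes whose profile over the 6 arrays was most like that of Ptgds were found among 5912 tested probe sets with 1 symbol and a range of at least 1 on the log2 scale. The 5 highest Pearson correlations, given as a description, belonged to Kif1a (0.996), a kinesin that carries synaptic vesicle precursors, Arpp21 (0.995), a cyclic AMP-regulated phosphoprotein of forebrain neurons, Gpr19 (0.988), an orphan receptor, Osbpl1a (0.980), a sterol-binding protein of endosomes, and Cplx1 (0.978), a complexin of the release machinery. Cplx1 read 436.0 and 656.5 in sham, 127.1 and 207.5 at 2 h, and 251.4 and 352.5 at 6 h. Kif1a read 50.5 and 86.7, then 9.8 and 11.6, then 17.6 and 26.1. Arpp21 read 28.9 and 46.1, then 4.6 and 4.5, then 8.9 and 12.2. These probe sets of Kif1a and Arpp21 passed the filter by their sham arrays only. On every array after ECS they lay below the array median, where the offset shrinks changes. Each of these 5 probe sets was lowest at 2 h and intermediate at 6 h, as the choice by correlation requires. Kif1a had another tested probe set at -0.10 ± 0.52 at 2 h and -0.54 ± 0.52 at 6 h, whose arrays overlapped with sham, whereas the other tested probe sets of Arpp21, Osbpl1a and Cplx1 were lower at both times without overlap.

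Genes next to Ptgds on chromosome 2 are given as values, with no comparison to Ptgds, which was chosen for its change. Of the 10 nearest protein-coding genes in RefSeq order (GRCm38.p6), a set looked up after the data had been seen, 7 were on the array and 3 were tested. The other 4 lie near the floor, where the offset shrinks changes. Npdc1, a neural membrane protein, was at 0.093 ± 0.29 and -0.019 ± 0.29, Abca2, a lipid transporter of oligodendrocytes, at 0.088 ± 0.48 and 0.26 ± 0.48, and Fbxw5, a ubiquitin ligase subunit, at 0.61 ± 0.45 and -0.02 ± 0.45.

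Markers of the cells known to make Ptgds were set beside it. Oligodendrocyte markers had a summed normalized signal of 3508 to 3887 in sham, 3198 to 3244 at 2 h and 2761 to 2851 at 6 h over 11 genes on the array. The median change of 9 tested genes was -0.33 at 2 h and -0.19 at 6 h, with 7 and 8 of them lower. Of the 9, 4 at 2 h and 5 at 6 h lay below both sham arrays, and 0 lay above both at either time. Among all tested probe sets 16.4% (2 h) and 15.3% (6 h) lay below. Without sham replicate 1 the 2 h median was -0.088. Leaving out sham replicate 2 gave a 6 h median of -0.33, and leaving out the first or the other 6 h array gave -0.35 or -0.34. Mbp, the myelin basic protein and brightest of the list, was at -0.34 ± 0.19 at 2 h and -0.65 ± 0.19 at 6 h. Cnp, a myelin enzyme and the next brightest, was at 0.078 ± 0.24 and -0.056 ± 0.24, with arrays that overlapped sham. The sum of this list was lowest at 6 h, whereas the median change of its tested genes was further below sham at 2 h. How this list relates to Ptgds was not tested.

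Choroid plexus markers were near background. Of 7 on the array none passed the filter, and their summed signal was 47.4 to 47.6 in sham, 58.8 to 74.5 at 2 h and 58.2 to 78.4 at 6 h, sums too near the floor to be put in order. Sostdc1, the brightest of them on average, read 0.2 to 39.1 across the arrays. Ttr, the most abundant transcript of that tissue, read 5.8 to 16.1 across the arrays. Markers of meninges and fibroblasts summed to 283 to 574 in sham, 369 to 642 at 2 h and 229 to 359 at 6 h over 14 genes, with replicate 1 above replicate 2 in every group. Of their 5 tested genes 4 were lower at 2 h, with a median of -0.22, but the median was 0.059 without sham replicate 1, -0.73 without sham replicate 2 and -0.40 without 2 h replicate 2. Vtn, the vitronectin gene and brightest of this list, went the other way at 2 h, with 154.9 and 45.3 in sham, 363.1 and 166.1 at 2 h, and 67.5 and 59.5 at 6 h. Its difference from sham was 1.45 ± 0.64 at 2 h and -0.44 ± 0.64 at 6 h. Which cells gave the Vtn signal was not tested. The sum of this list includes Vtn, so it is no measure of meninges alone. Igf2, a growth factor of meninges, was at -0.14 ± 0.61 and -0.30 ± 0.61. Dcn and Lum, extracellular matrix proteins that define fibroblasts, read 1.0 to 9.3 and 0.2 to 2.7, and no marker of any list was at exactly 0 on any array.

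Markers of neurons of cortex and hippocampus lay lower after ECS on the same arrays as Ptgds. This list was written with earlier results known and holds Camk2a, Kalrn and Mef2c, so its direction is no independent evidence. Over 8 genes on the array its summed signal was 3536 to 3617 in sham, 625 to 908 at 2 h and 764 to 2155 at 6 h. All 6 tested genes lay below both sham arrays at both times, where 16.4% (2 h) and 15.3% (6 h) of all tested probe sets did. Their median was -2.55 at 2 h and -1.51 at 6 h, or -0.79 at 6 h without 6 h replicate 1, and 0 were called without the block and 2 with it at 2 h. Kalrn, a regulator of dendritic spines, read 1210.3 and 1194.0 in sham, 126.3 and 119.9 at 2 h, and 287.4 and 615.6 at 6 h. Hpca, a calcium sensor of hippocampal neurons, read 730.9 and 1276.5, then 534.1 and 349.0, then 316.3 and 764.6. The 6 h arrays differed here, with sums at 21.4% of the sham mean in replicate 1 and 60.3% in replicate 2, where Ptgds was at 34.8% and 39.9%.

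The nucleus itself was present in all groups. Oxt, the gene of oxytocin, read 1495 to 3286 and Avp, that of vasopressin, 804 to 1247, and the PVN list summed to 3780 to 3808 in sham, 4548 to 4822 at 2 h and 4565 to 5171 at 6 h. Pan-neuronal markers summed to 14805 to 15609, 11419 to 11430 and 12095 to 13877. All 10 were tested and lower at both times, where 49.1% (2 h) and 50.4% (6 h) of all tested probe sets were. The median change of the 10 was -0.42 at 2 h and -0.28 at 6 h. Below both sham arrays lay 7 at 2 h and 5 at 6 h, where 16.4% and 15.3% of all tested probe sets did. Of the brightest pan-neuronal markers, Snap25, a vesicle fusion protein, was at -0.47 ± 0.12 at 2 h and -0.26 ± 0.12 at 6 h. Eno2, the neuronal enolase, was at -0.042 ± 0.17 and -0.011 ± 0.17. Astrocyte markers summed to 4335 to 4755 in sham, 4374 to 4468 at 2 h and 4070 to 4445 at 6 h, and microglia markers to 2096 to 2191, 1851 to 1984 and 2126 to 2166, so neither list left the range from 86.3% to 105% of its sham mean. The brightest of astrocytes were Gja1 (-0.13 ± 0.18 and -0.016 ± 0.18) and Aldoc (-0.059 ± 0.21 and -0.068 ± 0.21), as differences from sham at 2 h and 6 h. Those of microglia were Laptm5 (-0.62 ± 0.51 and 0.20 ± 0.51) and C1qb (0.22 ± 0.31 and 0.092 ± 0.31). Endothelial markers summed to 388 to 421, 377 to 560 and 417 to 591, and ependymal markers to 175 to 208, 177 to 232 and 158 to 248, with overlapping groups. The brightest of endothelium were Slco1a4 (-0.61 ± 0.36 and 0.019 ± 0.36) and Cldn5 (0.56 ± 0.55 and 0.25 ± 0.55). Those of ependyma were Rsph1 (-0.49 ± 0.40 and 0.015 ± 0.40) and Rarres2 (0.62 ± 0.42 and 0.44 ± 0.42). The part of any of these cell types in the Ptgds signal was not tested.

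**Figure D5:**
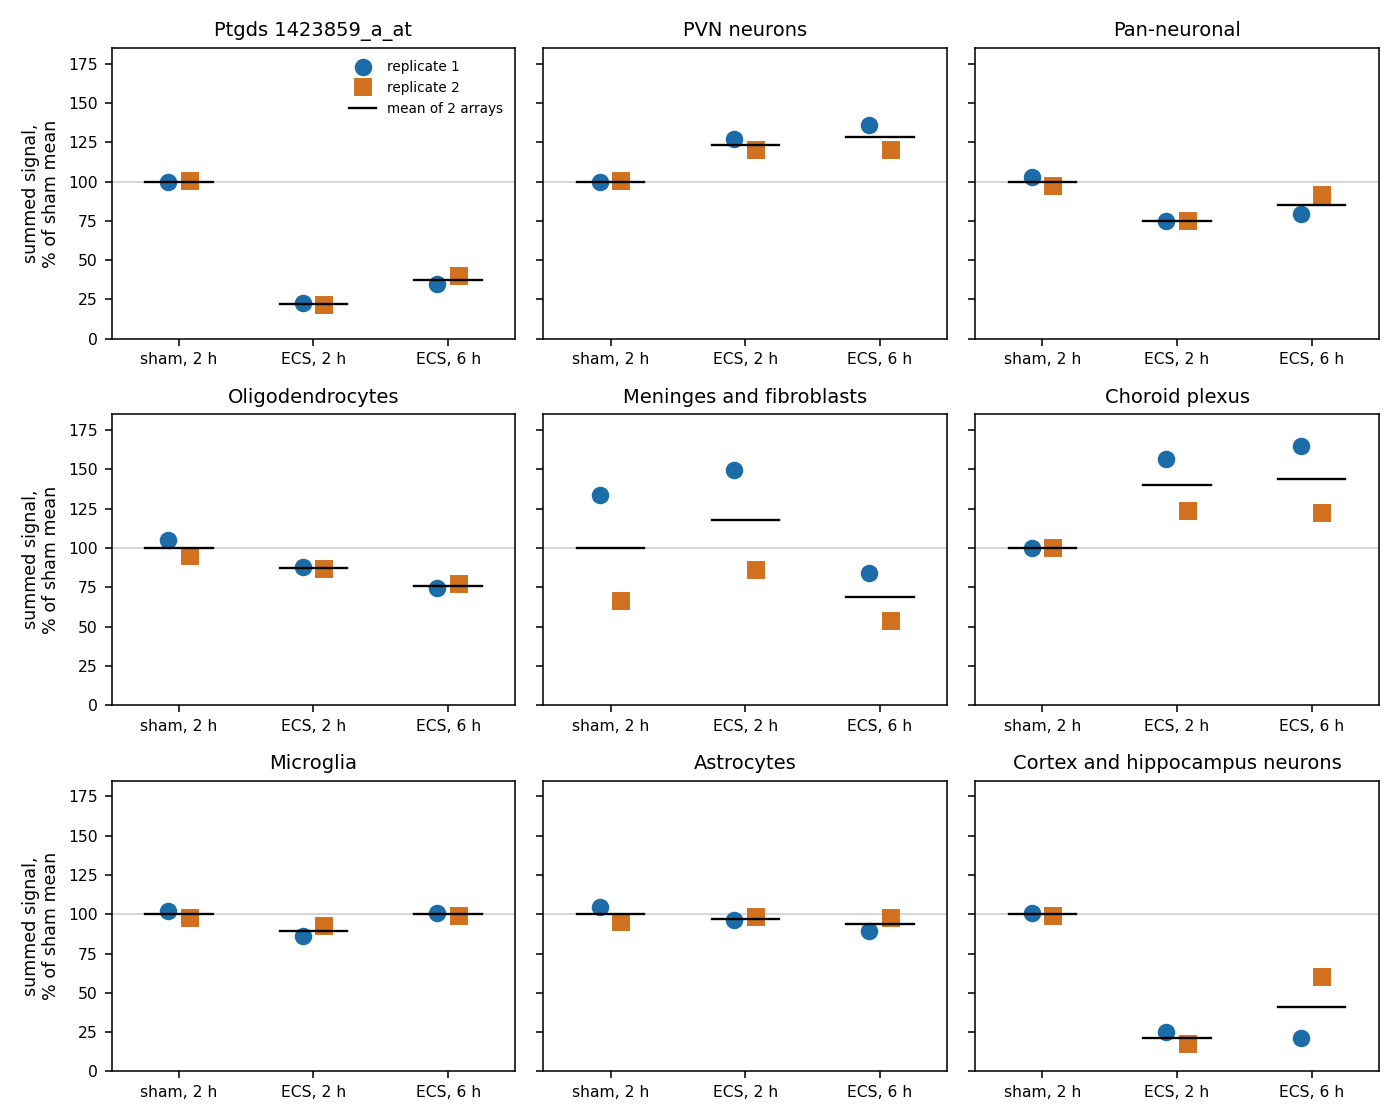
Summed normalized signal of marker lists, and the signal of Ptgds, in each array as a percent of the sham mean (circles replicate 1, squares replicate 2, lines the mean of 2 arrays). At 2 h Ptgds stands at 22.7% and 21.2%, and oligodendrocyte markers stand at 87.7% and 86.5%. The cortex and hippocampus list, written with earlier results known, stands at 25.4% and 17.5%.

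The first 6 h array was the least like the others, with a mean rank correlation of 0.887 against 0.906 to 0.919. Without it the Ptgds change at 6 h was -1.29 against sham and 0.82 against 2 h, and without 6 h replicate 2 it was -1.50 and 0.64. Array medians as deposited ran from 25.2 to 40.8. No pair of arrays held identical values, and pools rather than single animals were compared.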

How the data were processed

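RNA (2 ng per pool) was amplified with a whole-transcript kit and hybridised to 1-colour Affymetrix mouse arrays, per the labels' protocols. The deposited values are linear intensity values from MAS5, which the submitters' processing notes name without a version. Members and lists were chosen with earlier results of these data known.

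The 64 control probe sets were left out, 16 was added, and log2 values were quantile normalized. This offset shrinks changes of dim probe sets. Probe sets at or above their array's median in at least 2 of 6 arrays (12662 of 22626) were fitted in limma 3.58.1 (R 4.3.3) with a mean per group, an intensity trend and Benjamini-Hochberg adjustment, two-sided at 0.05 over all tested. The fit was checked on simulated data with independent arrays, which lack the correlation between same-numbered arrays given below. Symbols came from the array annotation, where 20380 probe sets carry 1 symbol, 691 several and 1555 none. A gene in a list is its probe set of highest mean.

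Named are all member probe sets and up to 4 genes per pathway list by smallest p in each comparison. Also named are the 2 brightest markers of each list and the 5 profiles nearest to Ptgds. Ptgdr2, Pla2g4a, Hpgds, the Ptgds neighbours, Otp, Dcn and Lum were named after their values were seen. Replicate numbers were read as the 2 array runs. Deviations from the group means correlated across probe sets by 0.23, 0.18 and 0.15 between same-numbered arrays of different groups. The main fit had no replicate block, because the labels give only a replicate number and do not state that it marks a run. A fit with a replicate block was an alternative. Others were the offset, scaling, filter, variance model, arrays in the fit and each array left out. The number of arrays limits the precision.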

Additional observations from a re-analysis of the deposited data

How the results depend on the processing

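Over 17 alternatives Ptgds (main probe set) stayed below sham at both times and 6 h stayed above 2 h. At 2 h against sham its change was -1.98 with an offset of 64 and ran from -2.17 to -2.08 with 1 array left out. At 6 h against sham it was -1.23 with no scaling between arrays, -1.20 with median subtraction and -1.50 to -1.29 with 1 array left out. At 6 h against 2 h it was 0.95 with no scaling, 0.86 with median subtraction and 0.64 to 0.82 with 1 array left out. The median of all tested probe sets moved from -0.0081 to 0.16 with no scaling at 6 h against 2 h, and from -0.0032 to 0.10 with median subtraction at 6 h against sham. With the replicate block the Ptgds changes were the same, at -2.13 ± 0.21, -1.40 ± 0.21 and 0.73 ± 0.21. Limma called 0 probe sets at 2 h against sham, 1 with no scaling, 1 with median subtraction, 2 with trimmed mean scaling, 2 with array weights, 4 with the replicate block and 7 in a fit of the 4 compared arrays. With 1 array left out it called 0 to 10, and 10 without either 6 h array. At 6 h against sham and 6 h against 2 h it called 0 in every fit but that without 6 h replicate 2, where it called 6 and 3 (range 0 to 6 and 0 to 3). The block ended no call and made no call at 6 h. The adjusted p of Ptges2 ran from 0.71 to 1 over all comparisons and alternatives. The cause of these shifts was not tested. Ptgs2 and Ptges lie so near background that their changes depend on the offset: with an offset of 1 the 6 h change of Ptgs2 1417263_at was -1.35, against -0.31.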
